A study of Mus musculus with 10 samples.

Results

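The 10 immediate early and AP-1 genes described here are Fos, Fosb, Jun, Junb, Jund, Atf3, Egr1, Klf2, Klf6 and Dusp1, taken by exact symbol from a table of 55385 mouse genes. Each symbol matched 1 row, and all 10 genes passed the filter on low counts with which 15064 genes were tested. The samples are labelled as a mouse ovarian tumour line, named APV245 in the titles and APC245 in the design text. The line derives from a tumour with mutations in both Arid1a and Pik3ca, so both groups share those mutations. In 5 samples the cells carried IL6 shRNA1 (genotype label IL6 knockdown), and in the other 5 they carried a non-mammalian shRNA in pLKO.1-puro (genotype label WT with control shRNA). No treatment was given, all samples have the same batch label, and the labels do not say whether a clone or a pool was used or whether the 5 samples of a group are separate tumours or cultures, so p-values measure the spread between these samples. The protocol fields describe cells kept in culture medium, whereas the design text describes tumours grown under the skin. RNA of leukocyte, endothelial and muscle genes was present, as given below, such as Cd74 at 2237.9 against 857.7 CPM. The RNA is therefore not read here as that of the line alone. The comparison was designed to ask what an shRNA against IL6 does.

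Immediate early genes are switched on within minutes of a stimulus from transcription factors already present in the cell, such as SRF with its TCF partners and CREB, which MAP kinases activate. Several of their products are transcription factors themselves. Fos and Fosb proteins pair with Jun, Junb or Jund through a leucine zipper to form AP-1, which binds DNA upstream of genes for growth, inflammation and matrix breakdown, while Atf3 joins Jun proteins or itself, and Egr1, Klf2 and Klf6 are zinc finger factors. Dusp1 is a phosphatase that removes the activating phosphates from MAP kinases and so closes the loop.

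Facts about the whole series bear on how the group difference can be read. Libraries held 17905397 to 22682346 counts. Il6 itself was not called and had the higher mean under the IL6 shRNA1 label, with 1.07, 1.83, 2.18, 1.80 and 1.75 CPM (counts scaled to library size with TMM factors) in IL6 shRNA1 libraries 1 to 5 against 1.61, 0.438, 2.06, 1.34 and 0.83 CPM in control libraries 1 to 5 (an estimate of 0.44 ± 0.36 SE on the log2 scale, adjusted p = 0.44 by edgeR's quasi-likelihood test; exact two-sided permutation p = 0.21). The groups are therefore named by their labels, and every direction below compares IL6 shRNA1 libraries with control libraries. On the first principal component, which held 53.9% of the variance, IL6 shRNA1 library 5 and control libraries 2 and 5 lay farthest out. Of the 12 tumour line markers, 11 were tested, with sums of 2909 to 3199 CPM in the IL6 shRNA1 libraries against 2566 to 3515 CPM. Most of each sum was Vim (means of 2681 against 2578 CPM), so the sums say little about the other markers. Upk3b was the 1 marker of that list that was called, at 119.9 against 58.9 CPM. Apart from Vim, no tested marker averaged above 119.9 CPM in either group. Wt1 (83.0 against 90.5 CPM), Krt8 (71.0 against 53.0 CPM) and Msln (42.3 against 29.5 CPM) were not called. Epcam (4.17 against 2.81 CPM) and Muc16 (4.09 against 1.69 CPM) were low.

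The sequences just upstream of 4 of the genes are shown because they carry the short motifs through which CREB, ATF and Jun proteins act, and because 3 of these genes rose (Fos, Dusp1 and Klf6) and Jun was not called. They are RefSeq sequences on GRCm38.p6, written 5′ to 3′ on the gene's own strand, upstream of the RefSeq start and cut where an annotated exon begins (that of Dusp1 lies within the span the file gives for the gene), with TGACGT (the CRE core, which also lies within the full CRE TGACGTCA), TGACATCA (the Jun-type site) and TATAAA in capitals on either strand.
Fos, chr12:85473640-85473889, + strand: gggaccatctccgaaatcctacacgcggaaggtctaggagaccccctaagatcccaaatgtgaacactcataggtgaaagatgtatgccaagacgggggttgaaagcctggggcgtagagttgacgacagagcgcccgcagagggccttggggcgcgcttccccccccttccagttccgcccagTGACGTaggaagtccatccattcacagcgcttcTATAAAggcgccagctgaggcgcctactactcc
Dusp1, chr17:26508520-26508722, - strand: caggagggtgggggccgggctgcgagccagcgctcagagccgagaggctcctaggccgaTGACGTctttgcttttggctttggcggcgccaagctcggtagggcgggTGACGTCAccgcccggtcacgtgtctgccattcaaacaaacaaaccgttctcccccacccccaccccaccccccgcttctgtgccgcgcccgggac
Klf6, chr13:5861239-5861481, + strand: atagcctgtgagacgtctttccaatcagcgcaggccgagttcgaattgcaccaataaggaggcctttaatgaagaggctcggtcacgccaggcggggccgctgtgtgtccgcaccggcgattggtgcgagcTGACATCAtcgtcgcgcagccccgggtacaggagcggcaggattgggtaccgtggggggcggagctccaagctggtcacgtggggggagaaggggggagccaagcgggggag
Jun, chr4:95052223-95052472, - strand: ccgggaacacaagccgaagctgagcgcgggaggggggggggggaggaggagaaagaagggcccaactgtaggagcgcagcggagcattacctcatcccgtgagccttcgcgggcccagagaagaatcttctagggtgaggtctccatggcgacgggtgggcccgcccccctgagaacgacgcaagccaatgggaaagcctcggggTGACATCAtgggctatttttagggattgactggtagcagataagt

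The promoter table held 9 of the 10 genes. In the 250 bases before the RefSeq start, the CRE core was found in Fos, Atf3 and Dusp1, and in 6.47% of all 32851 promoters in the table. Fos and Dusp1 rose, whereas Atf3 was not called. The full CRE was found in Dusp1 and in 1.55% of all promoters. The Jun-type site was found in Jun and Klf6 and in 2.93% of all promoters, so it was shared by a gene that rose and a gene that was not called. GCGNGGGCG, the site of EGR proteins, was found in Fosb and Klf2 and in 4.7% of all promoters, and TATAAA in Fos and in 12.4%. The AP-1 site TGANTCA (6.75% of all promoters) and the CArG box bound by SRF (1.47%) had no match in these 9 windows, which says only that the letters are not within these bases. Both strands were searched, and a match describes letters, not binding.

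Of the 10 genes, 5 rose in the libraries labelled IL6 shRNA1 (Fos, Junb, Klf2, Klf6 and Dusp1), 0 fell and 5 were not called at an adjusted p under 0.05. Of all 15064 genes, 5.62% were called higher and 6.16% lower, 11.8% in all. Fold changes were positive for 8 of the 10, against 47.9% of all genes, and negative for Jun and Jund, with a median log2 fold change of 0.48 against -0.01 over all genes tested. The groups did not overlap for Klf6 and Dusp1, against 10.9% of all genes, 4.81% with every IL6 shRNA1 library above every control. With the replicate number as a block, which the data do not show to pair the libraries, 2 of the 10 genes were called higher, against 2.32% of all genes. The 10 genes were proposed with earlier results of these data known, so these counts describe them and are not independent evidence.

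**Figure D1:**
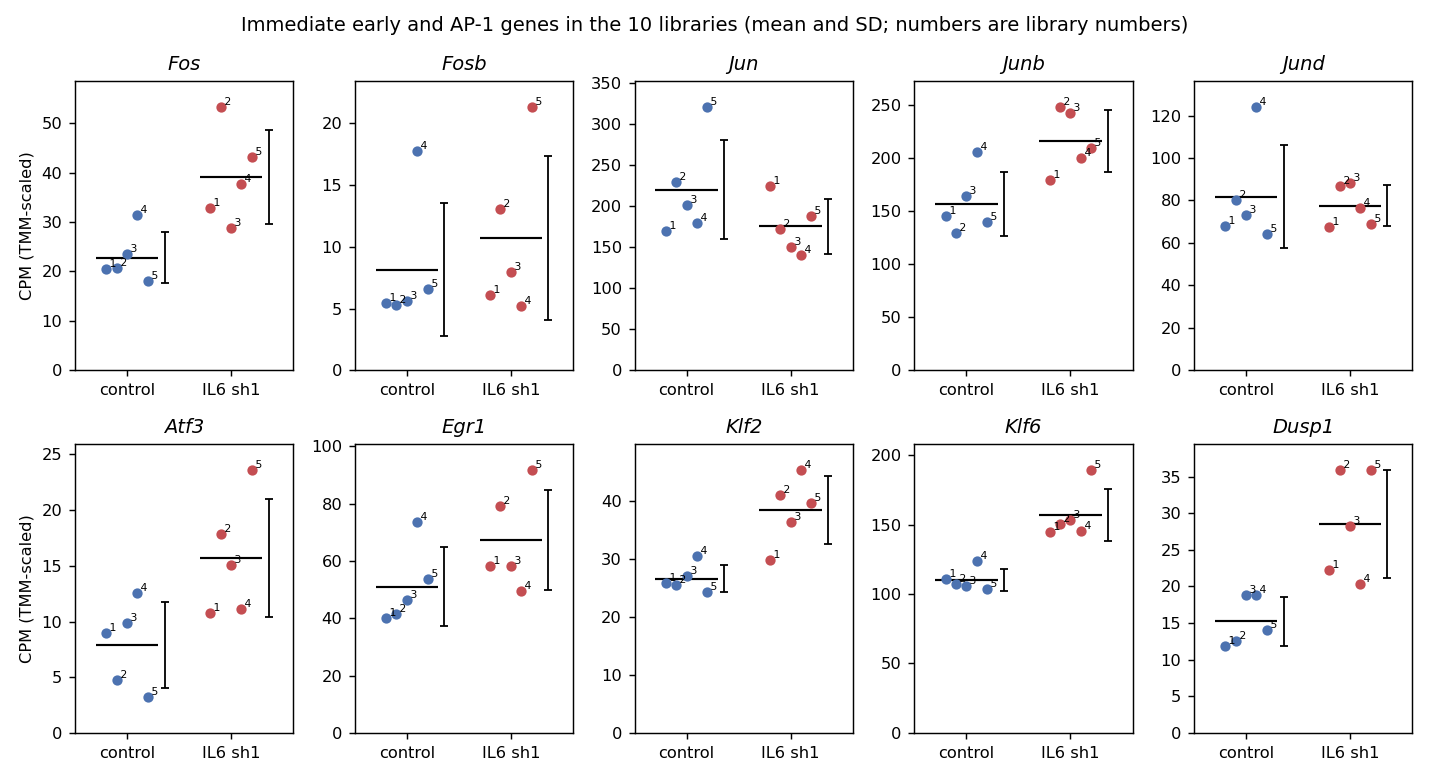
CPM of each gene (y axis, from 0) in the 5 control (blue) and 5 IL6 shRNA1 (red) libraries, with library numbers beside the points, the group mean as a bar and the SD beside it. Klf6 and Dusp1 show separate groups, Fosb and Jund have a control library 4 far above the other controls, and Jun is highest in control library 5.

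Among the Fos family, Fos rose and Fosb was not called. Fos (ENSMUSG00000021250.13, chromosome 12, 85473890 to 85477273) stood at 32.8, 53.2, 28.7, 37.6 and 43.2 CPM in IL6 shRNA1 libraries 1 to 5, and at 20.4, 20.6, 23.6, 31.4 and 18 CPM in control libraries 1 to 5. The groups overlapped only because control library 4 exceeded IL6 shRNA1 library 3, and the other 4 IL6 shRNA1 libraries lay above every control. The means were 39.1 ± 9.57 against 22.8 ± 5.19 CPM (SD, n = 5 each), a 1.71-fold difference with a 95% interval from 1.29 to 2.28 (log2 fold change 0.78 ± 0.19 SE; adjusted p = 0.025 by edgeR). The call was lost without IL6 shRNA1 library 2 (adjusted p = 0.057) or 5 (0.061), or control library 2 (0.064) or 5 (0.065). Fosb (ENSMUSG00000003545.3, chromosome 7, 19302696 to 19310051), a paralog of Fos, stood at 6.09, 13.1, 7.97, 5.21 and 21.3 CPM against 5.47, 5.31, 5.63, 17.8 and 6.58 CPM. It was high in IL6 shRNA1 libraries 2 and 5 and in control library 4, and within a narrow range of 5.21 to 7.97 CPM in the other 7. Its log2 fold change was 0.40 ± 0.48 (SE; 95% interval -0.66 to 1.46; adjusted p = 0.61 by edgeR), and without IL6 shRNA1 library 5 it was -0.0033.

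Of the 3 Jun genes, Junb rose and Jun and Jund were not called. Junb (ENSMUSG00000052837.6, chromosome 8, 84976910 to 84978718), known as a weaker activator than Jun that can also restrain it, stood at 179.7, 248.0, 243.1, 199.8 and 209.2 CPM in IL6 shRNA1 libraries 1 to 5 against 145.7, 129.3, 164.5, 205.9 and 139.8 CPM in control libraries 1 to 5. Only control library 4 reached into the range of the other group. Junb rose 1.38-fold (95% interval 1.12 to 1.68; log2 fold change 0.46 ± 0.13 SE; adjusted p = 0.046 by edgeR). This call is the closest of the 5 to the threshold. It was lost in 8 of the 10 omissions of a single library (adjusted p up to 0.11), where it held without IL6 shRNA1 library 1 and without control library 4, and also with upper-quartile factors (0.051) and with library totals alone (0.083).

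Jun (ENSMUSG00000052684.4, chromosome 4, 95049034 to 95052222), the main partner of Fos, stood at 224.7, 172.2, 150.5, 140.4 and 188.2 CPM against 170.0, 229.4, 201.5, 179.5 and 320.4 CPM. Control library 5, the lowest for Fos, Jund, Atf3, Klf2 and Klf6, was the highest for Jun. The log2 fold change was -0.33 ± 0.18 (SE; 95% interval -0.73 to 0.07; adjusted p = 0.24 by edgeR), which leaves room for a fall to 0.602-fold or a rise to 1.05-fold. Jund (ENSMUSG00000071076.6, chromosome 8, 70698949 to 70700616), the Jun family member that is usually present without a stimulus, stood at 67.4, 87.0, 88, 76.5 and 69.0 CPM against 67.8, 80.2, 73.1, 123.9 and 64.0 CPM. Apart from control library 4 the 2 groups covered much the same range, and the log2 fold change was -0.08 ± 0.17 (SE; 95% interval -0.46 to 0.30; adjusted p = 0.80 by edgeR), or 0.12 without control library 4. GENCODE M21 places exons of the antisense gene Gm11175 over 52.6% of the exon bases of Jund, and the antisense gene Junos over 7.28% of those of Jun. Gm11175 was counted at 0 in every library and Junos at 16 to 55 counts, and since the strand setting of the counting is not given in the sources used here, reads from the shared bases cannot be assigned.

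**Figure D2:**
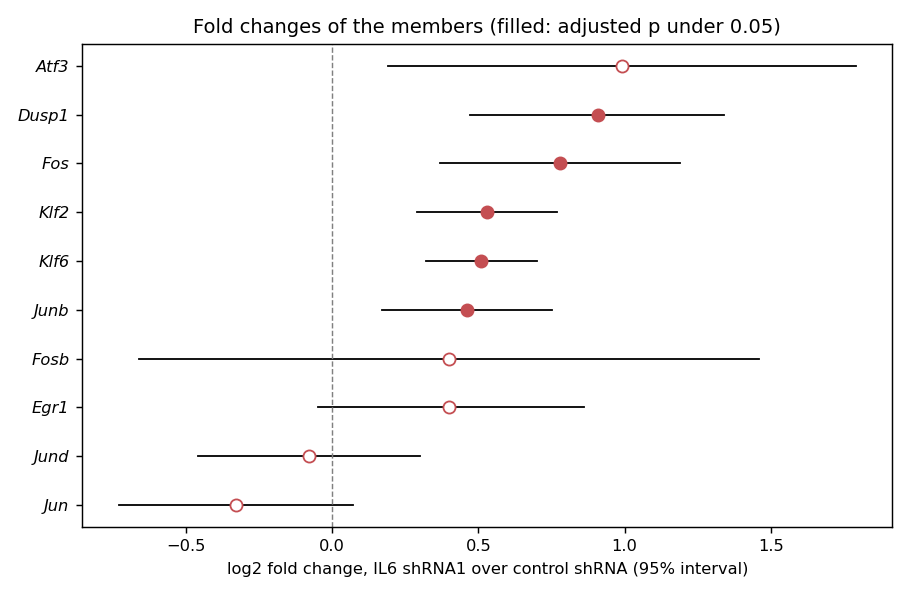
Log2 fold change of each gene, IL6 shRNA1 over control shRNA (x axis), with its 95% interval from the edgeR fit; filled points have an adjusted p under 0.05. Dusp1, Fos, Klf2, Klf6 and Junb are filled, Atf3 has the largest estimate (0.99) with a wide interval, and Jund and Jun lie below 0.

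Because a call for Fos or Junb and none for Jun or Jund does not show that the genes differ from each other, the ratio of FPKM values within each library was compared between the groups for all 10 pairs of the 5 Fos and Jun genes. These ratios were chosen after the values had been seen. FPKM is a count relative to gene length and to library total, so it allows levels of different genes to be set side by side. The Junb to Jund ratio was 1.93, 2.07, 2.00, 1.89 and 2.20 in IL6 shRNA1 libraries 1 to 5 and 1.56, 1.17, 1.63, 1.2 and 1.58 in control libraries 1 to 5. It was higher in 5 of 5 IL6 shRNA1 libraries than in any control, a log2 difference of 0.51 (exact two-sided permutation p = 0.0079, the smallest that 5 against 5 allow; adjusted over the 10 pairs 0.04). The Fos to Jund ratio was 0.345, 0.434, 0.232, 0.348 and 0.444 against 0.213, 0.183, 0.229, 0.18 and 0.2. Its groups did not overlap either, although IL6 shRNA1 library 3 and control library 3 nearly met (log2 difference 0.81; exact permutation p = 0.0079, adjusted 0.04).

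The Fos to Jun ratio was 0.198, 0.419, 0.259, 0.363 and 0.311 against 0.162, 0.122, 0.159, 0.237 and 0.0763, a log2 difference of 1.08 that did not pass after adjustment (exact permutation p = 0.016, adjusted 0.053). The Junb to Jun ratio differed by 0.78 (exact permutation p = 0.056, adjusted 0.14) and that of Jun to Jund by -0.27 (p = 0.42 by the same exact test, adjusted 0.47). The other 5 pairs, 4 of them with Fosb, had adjusted p-values of 0.21 to 0.82 by the exact permutation test. Without each library in turn the log2 difference ranged from 0.44 to 0.56 for Junb to Jund and from 0.73 to 0.96 for Fos to Jund. Jund is the denominator in both ratios that passed, so its overlap with Gm11175 touches both.

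**Figure D3:**
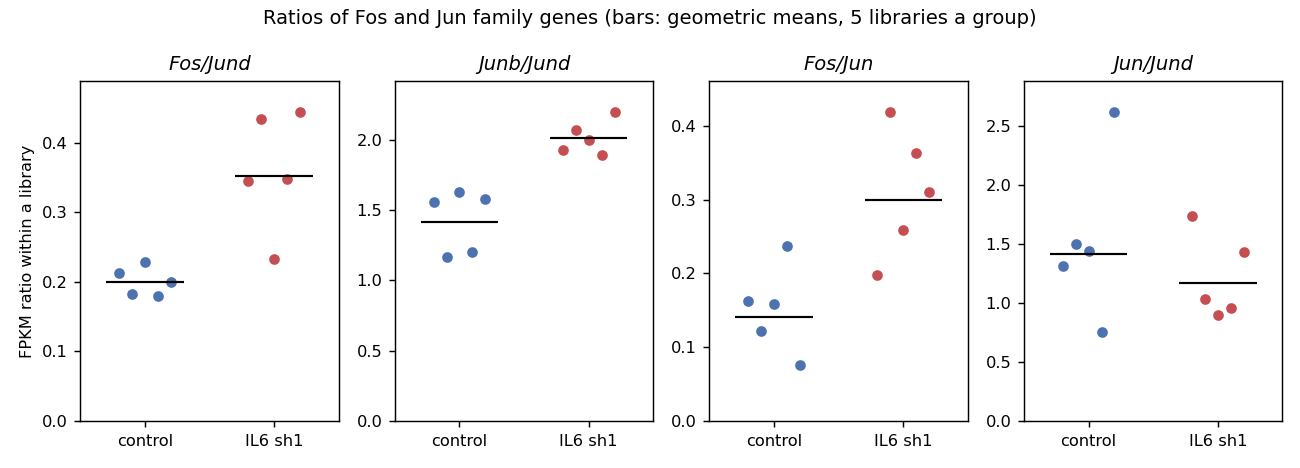
FPKM ratio of 2 genes within a library (y axis, from 0) for 4 of the 10 pairs, with the 5 control libraries in blue, the 5 IL6 shRNA1 libraries in red and geometric means as bars. The groups are separate for Fos/Jund and Junb/Jund and overlap for Fos/Jun, through control library 4, and for Jun/Jund.

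Atf3 and Egr1 had positive fold changes and were not called. Atf3 (ENSMUSG00000026628.13, chromosome 1, 191170296 to 191218039), a stress-induced factor that often represses its targets, stood at 10.8, 17.9, 15.1, 11.1 and 23.6 CPM against 9.0, 4.77, 9.84, 12.6 and 3.20 CPM. It had the largest log2 fold change of the 10 genes (0.99 ± 0.36 SE; 95% interval 0.19 to 1.79), with a wide spread in both groups and an adjusted p of 0.096 by edgeR (0.026 by DESeq2). Control libraries 2 and 5 held the lowest values, and IL6 shRNA1 libraries 1 and 4 lay below control library 4. Egr1 (ENSMUSG00000038418.7, chromosome 18, 34859823 to 34864984), a standard readout of MAP kinase signalling to SRF, stood at 58.1, 79.3, 58.2, 49.6 and 91.7 CPM against 40.1, 41.5, 46.3, 73.6 and 53.7 CPM. As with Fosb, IL6 shRNA1 libraries 2 and 5 and control library 4 were the 3 highest, and the log2 fold change was 0.40 ± 0.21 (SE; 95% interval -0.05 to 0.86; adjusted p = 0.21 by edgeR).

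Both Kruppel-like factors rose. Klf2 (ENSMUSG00000055148.7, chromosome 8, 72319033 to 72321656), a factor known from blood vessel lining cells and from quiescent lymphocytes and macrophages, stood at 29.8, 41.1, 36.4, 45.4 and 39.7 CPM against 25.9, 25.5, 27.1, 30.5 and 24.3 CPM. The groups met only at IL6 shRNA1 library 1 and control library 4. Klf2 was 1.44-fold higher (95% interval 1.22 to 1.71; log2 fold change 0.53 ± 0.11 SE; adjusted p = 0.014 by edgeR) and kept its call in all 10 omissions of a single library. Klf6 (ENSMUSG00000000078.7, chromosome 13, 5861482 to 5870394), a factor induced by injury and regarded as a growth suppressor, stood at 144.9, 150.6, 153.5, 145.4 and 189.3 CPM against 110.5, 107.3, 105.8, 124.0 and 103.3 CPM. Every IL6 shRNA1 library lay above every control. Klf6 was 1.42-fold higher (95% interval 1.25 to 1.62; log2 fold change 0.51 ± 0.09 SE; adjusted p = 0.0062 by edgeR), with the smallest p of the 10 genes, and it also kept its call in each of the 10 omissions.

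Dusp1 (ENSMUSG00000024190.7, chromosome 17, 26505590 to 26562128) had the largest change among the called members. It stood at 22.3, 35.9, 28.2, 20.3 and 35.9 CPM in IL6 shRNA1 libraries 1 to 5 and at 11.9, 12.5, 18.9, 18.8 and 14 CPM in control libraries 1 to 5. The groups were separate, with IL6 shRNA1 library 4 closest to control libraries 3 and 4. Dusp1 was 1.88-fold higher (95% interval 1.39 to 2.54; log2 fold change 0.91 ± 0.20 SE; adjusted p = 0.018 by edgeR), and its adjusted p stayed at 0.049 or lower in all 10 omissions. Without IL6 shRNA1 library 5 and control libraries 2 and 5 together, an alternative added after the data were seen, 0 of the 10 genes were called by edgeR and 4 had an unadjusted p under 0.05, in a fit where 0.846% of all genes were called higher. The log2 fold changes were then 0.60 for Fos (adjusted p = 0.24), 0.34 for Junb (0.31), 0.46 for Klf2 (0.16), 0.39 for Klf6 (0.057) and 0.69 for Dusp1 (0.19), while those of the uncalled members were -0.24 for Fosb, -0.10 for Jun, -0.15 for Jund, 0.39 for Atf3 and 0.20 for Egr1. In the same 4 IL6 shRNA1 and 3 control libraries the log2 difference of the Fos to Jund ratio was 0.69 and that of Junb to Jund 0.44, each with the smallest p these numbers allow (exact permutation p = 0.057).

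Read across libraries, the 10 genes mostly followed the groups, with 5 to 9 of them above their mean over all libraries in each IL6 shRNA1 library. IL6 shRNA1 library 2 was among the 3 highest libraries for 9 of the 10 genes and IL6 shRNA1 library 5 for 8. Control library 1 was among the 3 lowest for 9 genes, control library 2 for 8 and control library 5 for 7. Control library 4 stood apart from the other controls, with 6 of the 10 genes above that mean against 0 to 2 in the others. IL6 shRNA1 libraries 1 and 4 had 6 and 5. By the mean log2 deviation of the 10 genes, control library 4 (0.24) exceeded IL6 shRNA1 libraries 1 (0.0), 3 (0.16) and 4 (-0.01). Jun ran against the rest, with its highest value in control library 5 and its lowest in IL6 shRNA1 library 4.

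**Figure D4:**
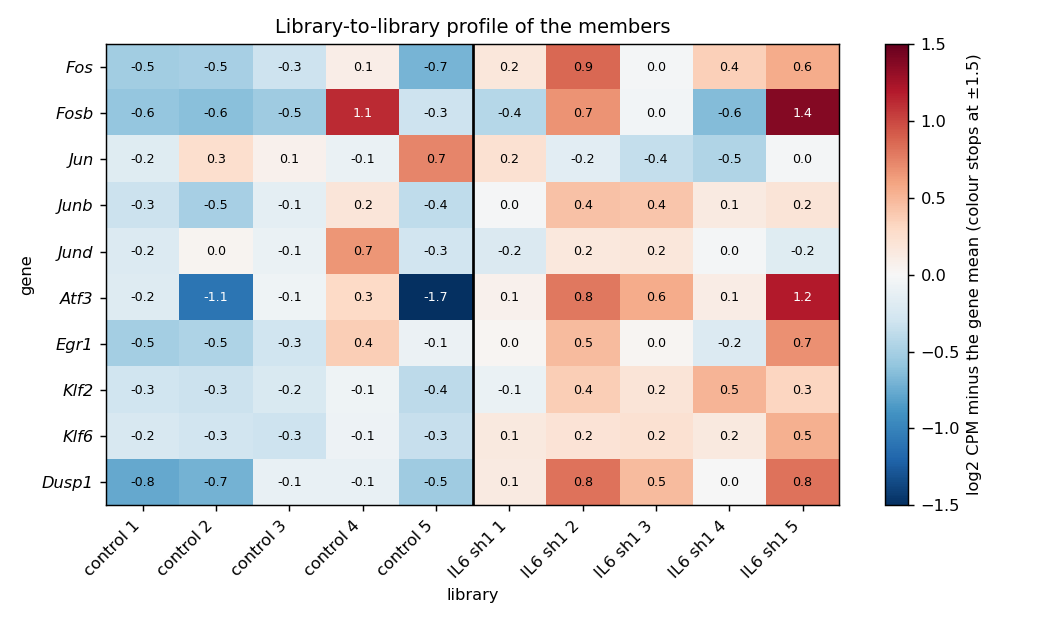
Log2 CPM minus the mean of the gene over 10 libraries (colour and number) for each gene (rows) and library (columns; controls left of the line). IL6 shRNA1 libraries 2 and 5 and control library 4 are mostly red, control libraries 1, 2 and 5 mostly blue, and the Jun row runs the other way in control library 5.

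With the group means removed, Fos correlated positively with 8 of the other 9 genes over the 10 libraries, and 0 of 9 relations passed after adjustment by Pearson's r. The highest was that with Fosb (r = 0.70, permutation p = 0.025, adjusted over 9 relations 0.0755; Spearman's rho = 0.48, permutation p = 0.16, adjusted 0.247; n = 10). With Klf2 the rank correlation passed narrowly (rho = 0.82, permutation p = 0.0055, adjusted 0.0492) whereas Pearson's r did not (r = 0.65, permutation p = 0.039, adjusted 0.0755). The permutations exchanged values across both groups without allowance for the group means removed. These p-values are therefore approximate and may be too small, which matters for a value so near the threshold. Jun was the exception in direction, with r = -0.30 (permutation p = 0.40, adjusted 0.398; rho = -0.21, permutation p = 0.56, adjusted 0.563). Without control library 4 and IL6 shRNA1 library 2, the farthest from the median of Fos, r was 0.43 for Fosb, 0.54 for Klf2, 0.59 for Atf3, 0.42 for Dusp1, 0.35 for Egr1 and 0.56 for Klf6. It went from 0.62 to -0.01 for Junb and from 0.58 to -0.21 for Jund, so the values for these 2 genes rest on those libraries. Among 9858 other genes that averaged 10 CPM or more, Ets1, a transcription factor gene of the ETS family (r = 0.91), Arhgap44 (0.87) and Far2 (0.87) followed Fos most closely over the 10 libraries with group means removed. The mean profile of the 10 genes, groups included, was most like those of Neurl1a (r = 0.96), Ets1 (0.94) and Tmem30a (0.94). These are the highest of 9858 correlations over 10 points and are given as a description.

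Per length, the Jun genes were the most abundant of the 10. By median FPKM over the 10 libraries the order was Junb (82.1), Jun (57.1), Jund (46.1), Klf6 (30.0), Klf2 (16.2), Fos (12.9), Egr1 (12), Dusp1 (6.23), Atf3 (5.14) and Fosb (0.967). The FPKM of Jund is divided by its full exon length, of which the antisense gene Gm11175 covers 52.6%. Reads from those bases cannot be assigned, so the level and the place of Jund in this order are uncertain. Klf6 exceeded Klf2, Egr1 exceeded Dusp1 and Atf3 exceeded Fosb in 10 of 10 libraries. Neighbours that did not keep 1 order were Junb and Jun (Junb higher in 8 of 10), Jun and Jund (7 of 10), Jund and Klf6 (9 of 10), Klf2 and Fos (9 of 10), Fos and Egr1 (Fos higher in 3 of 10) and Dusp1 and Atf3 (7 of 10). In the control libraries Junb and Jun stood at 68.4 ± 15.3 and 68.2 ± 15 FPKM, whereas in the IL6 shRNA1 libraries they stood at 94.2 ± 14.8 and 54.7 ± 8.21 FPKM (SD, n = 5 each).

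The related genes were taken from lists written for this comparison with earlier results of these data known. Of 15 other AP-1 subunits and dimer partners (among them Fosl1, Fosl2 and Batf), 1 was higher, 0 lower and 14 not called (median log2 fold change 0.07). The share called was 6.67%, against 11.8% of all genes called either way and 5.62% called higher. Of the 15, 9 had positive fold changes. An unadjusted p under 0.05 was found for 4 of them by edgeR, and DESeq2 called 3 and limma voom 1. Over all genes DESeq2 called 3005 and limma voom 1866, against 1775 by edgeR. The share of all genes at an unadjusted p under 0.05 is not given here. Counts of that kind, for this list and elsewhere in the text, therefore stand without a background. The Fos paralogs Fosl1 (2.63 against 3.39 CPM) and Fosl2 (370.8 against 444.3 CPM), picked out after their values were seen, were not called, with log2 fold changes of -0.36 and -0.26.

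Of 28 other immediate early genes, 4 were higher, 0 lower and 24 not called, and 22 had positive fold changes (median 0.19). The share called was 14.3%, against 11.8% of all genes called either way and 5.62% called higher. Btg2, an antiproliferative gene, stood at 135.6 ± 18.5 against 63.0 ± 12.8 CPM (SD, n = 5; adjusted p = 0.0022 by edgeR, and the groups did not overlap). Ier5 stood at 111.9 ± 9.03 against 76.9 ± 5.16 CPM (log2 fold change 0.54 with an SE of 0.07; adjusted p = 0.0023 by edgeR). These 2 genes kept their calls in each of the 24 alternatives, including the omission of the 3 farthest libraries. Zfp36, which encodes the mRNA-destabilising protein tristetraprolin, stood at 44.8 ± 3.88 against 30.8 ± 5.48 CPM (adjusted p = 0.019 by edgeR), and its groups did not overlap. The fourth was Ccn1, a matrix-associated signalling protein, at 366.1 against 249.8 CPM (adjusted p = 0.026 by edgeR).

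Around the MAP kinase loop, the shares of genes called were 6.25% and 3.85% in the lists of feedback genes and of kinases with their factors. Of all genes, 11.8% were called either way, 5.62% higher and 6.16% lower. Of 16 other dual specificity phosphatase, Sprouty and Spred genes, Dusp10, a phosphatase of JNK and p38, was higher at 5.30 ± 1.94 against 2.18 ± 0.765 CPM (adjusted p = 0.029 by edgeR; lost in 7 of the 10 single omissions), 0 were lower and 15 were not called (median 0.15). In that list 7 had an unadjusted p under 0.05 by edgeR, and DESeq2 called 5 and limma voom 3. Of 26 tested genes for MAP kinases and their factors SRF, TCF and CREB, 1 fell, 0 rose and 25 stayed uncalled (median -0.03), while 5 had an unadjusted p under 0.05 by edgeR, and DESeq2 called 4 and limma voom 1. Of 10 other Kruppel-like factors tested, Klf12 was lower at 2.24 ± 0.769 against 5.54 ± 0.628 CPM (adjusted p = 0.0071 by edgeR), 0 were higher and 9 were not called (median -0.01). That is 10% called, against 11.8% of all genes either way and 6.16% lower, while 3 had an unadjusted p under 0.05 by edgeR. DESeq2 called 2 and limma voom 1. Of 9 heat shock genes, which respond to handling and heat, 0 were called by edgeR (median 0.01), the most abundant being Hspa8 at 1420 against 1374 CPM. An unadjusted p under 0.05 was found for 2 of them by edgeR, and DESeq2 called 1 and limma voom 0.

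Of 14 tested genes that textbooks list as AP-1 targets, 5 were higher, 0 lower and 9 not called (median 0.58). The share called was 35.7%, against 11.8% of all genes. Fold changes were positive for 12 of the 14. They were negative for Mmp9 (245.0 against 446.2 CPM, log2 fold change -0.86) and Spp1 (324.9 against 482.6 CPM, -0.57), which were not called. The summed level overlapped between the groups (1539 to 1826 against 1409 to 1938 CPM). Plau, the urokinase gene, stood at 86.4 ± 13.2 against 46.6 ± 11.8 CPM, Il1b, which encodes interleukin-1 beta, at 25.4 ± 8.76 against 7.43 ± 3.72 CPM, and Ptgs2, the prostaglandin synthase COX-2, at 226.7 ± 61.8 against 98.8 ± 36.3 CPM (SD, n = 5; adjusted p = 0.013, 0.016 and 0.02 by edgeR). The others were the cyclin gene Ccnd1 (64.8 against 41.8 CPM) and the collagenase gene Mmp13 (60.5 against 16.5 CPM). Without the 3 farthest libraries 0 of the 14 were called by edgeR and 6 had an unadjusted p under 0.05. With the replicate number as a block 0 of the 14 were called.

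**Figure D5:**
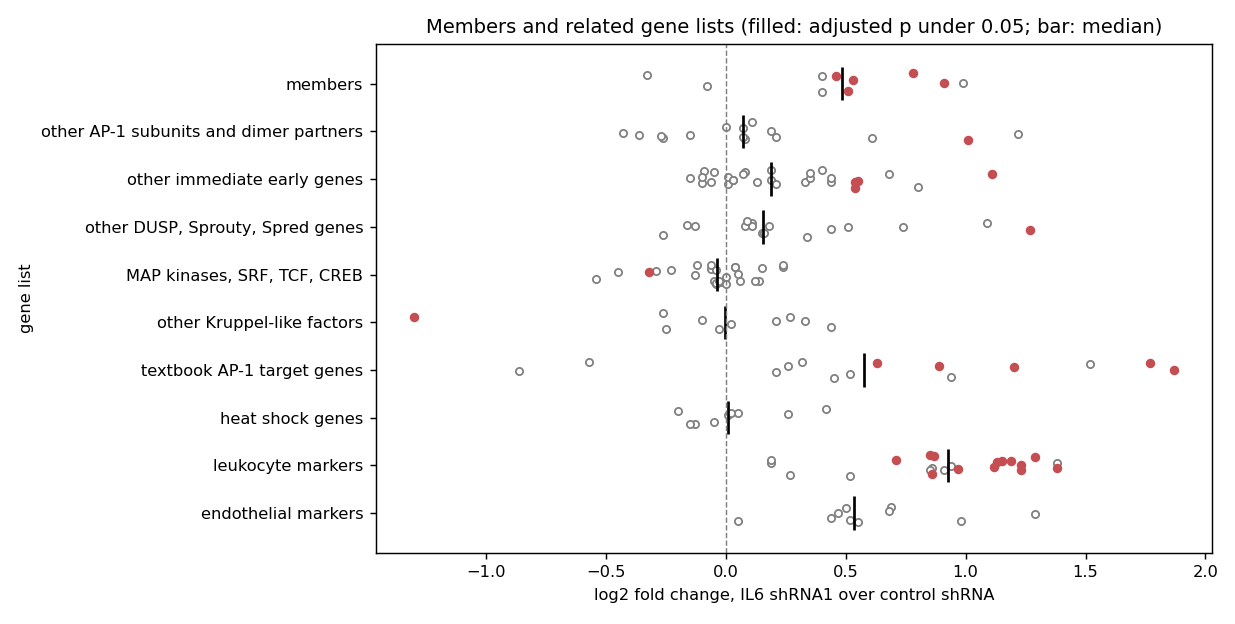
Log2 fold change, IL6 shRNA1 over control shRNA (x axis), of every tested gene in the 10-gene set, the 7 pathway lists and the leukocyte and endothelial markers (rows); filled points have an adjusted p under 0.05 and bars are medians. The medians are 0.48 for the 10 genes, 0.58 for the AP-1 target list, 0.93 for leukocyte markers and 0.53 for endothelial markers, and between -0.03 and 0.19 for the other 6 lists plotted.

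Leukocyte markers were higher on average in the IL6 shRNA1 libraries, and their values and those of other cell types stand beside the rise of Fos, Junb, Klf2, Klf6 and Dusp1. In bulk RNA, fewer cells of a type and less RNA per cell cannot be told apart. Leukocyte genes were called higher for 13 of the 22 that could be tested and lower for 0 (median 0.93), a share of 59.1% against 11.8% of all genes. Their summed level was 3402 to 6788 CPM in the IL6 shRNA1 libraries against 1286 to 3574 CPM in control, so the groups overlapped. The 9 not called all had positive fold changes. Ptprc (log2 fold change 0.86) and the macrophage gene Cd68 (0.27) were among them. The rest were the T cell markers Cd3d, Cd3e, Cd4 and Cd8a, the natural killer cell marker Nkg7, and the neutrophil genes S100a8 and S100a9 (0.19 each). Itgax (97.6 against 39.8 CPM), Csf1r (275.7 against 151.5 CPM) and Lyz2 (670.8 against 408.6 CPM), all known from macrophages and dendritic cells, had the smallest p, and none of the 25 listed markers was at 0 in every library, although Cd79a, Ms4a1 and Ncr1, which mark B cells and natural killer cells, were too low to be tested. Of 10 endothelial markers, 0 were called by edgeR, all 10 had positive fold changes (median 0.53), and their sum was 241.3 to 473.7 against 180.2 to 280.4 CPM, with Kdr the most abundant at 57.3 against 55.4 CPM. An unadjusted p under 0.05 was found for 5 of the 10 by edgeR, and DESeq2 called 4 and limma voom 0. Among 10 fibroblast and pericyte markers, the matrix genes Lum (440.5 against 860.3 CPM) and Dcn (511.1 against 783.4 CPM) fell and the smooth muscle gene Myh11 (9.38 against 4.66 CPM) rose, with sums of 22132 to 39750 against 20209 to 47145 CPM. Muscle, fat and skin markers ranged from 149.4 to 9463 against 41.0 to 997.0 CPM in sum with 0 of 8 called, led by the muscle actin gene Acta1 (22.2 to 3392 against 8.90 to 519.1 CPM), and red blood cell markers stayed at 9.63 CPM or less in sum with 0 of 2 called, the most abundant being Hbb-bs, which has close paralogs. Of the muscle, fat and skin markers, 5 had an unadjusted p under 0.05 by edgeR, and DESeq2 called 5 and limma voom 0, while 0 of the red blood cell markers passed by any of these. Without the 3 farthest libraries 0 of the 22 leukocyte markers were called by edgeR and 14 had an unadjusted p under 0.05. The part of these cells in the changes of the 5 genes was not tested.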

How the data were processed

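RNA-seq libraries of 5 IL6 shRNA1 and 5 control shRNA samples were analysed. Gene counts were deposited by the authors with FPKM values. The submitters' processing notes name Subread 1.6.4 and STAR 2.7.0f with mm10, besides FastQC 0.11.9 and Trim Galore 0.6.6. Which annotation release, strand setting and handling of multi-mapping reads applied is not given in the sources used here. Deposited FPKM values equal the count divided by gene length and library total. No batch differed between samples in the labels, and 0 sample columns were left unused.

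Counts were filtered with filterByExpr (minimum count 10), scaled by TMM and tested on all 15064 remaining genes with edgeR 4.0.16 (robust quasi-likelihood, Benjamini-Hochberg adjustment, adjusted p under 0.05) in R 4.3.3. Alternatives used DESeq2 1.42.0 and limma 3.58.1, other scalings, filters and FPKM pseudocounts (1 and 0.1, on log2 of the authors' FPKM), a replicate block and the omission of libraries. The edgeR script was checked on simulated counts. Single values and ratios were compared by exact two-sided permutation over 252 regroupings, and correlations by 100000 permutations.

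The 10 genes and the related lists were chosen with earlier results of these data known. Named were all 10 genes, Il6, up to 3 called genes with the smallest p per list (with none called, the most abundant), and the genes most alike in profile; others are named where a count was small or where stated, and 2 called genes of the related lists are not reported here. Promoters came from RefSeq (GRCm38.p6), and exon overlaps from GENCODE M21, with which 9 of the 10 genes shared their coordinates (not Junb).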

Additional observations from a re-analysis of the deposited data

Results flagged for a closer look

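In 3 of the 22 groups of 5 libraries examined (the 10 genes and Il6), 1 library lay far from the other 4 of its group by Dixon's test. About 1 group in 20 passes by chance. Fosb stood at 17.8 CPM in control library 4, with a gap of 0.90 of the range of that group. Jund stood at 123.9 CPM in the same library, with a gap of 0.73. Klf6 stood at 189.3 CPM in IL6 shRNA1 library 5, with a gap of 0.81. The cause of these values was not tested. The heat shock genes, listed as signs of handling, had their highest score in control library 4 too (a mean log2 deviation of 0.68, against -0.38 to 0.23 in the other 9 libraries).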

How the results depend on the processing

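Of all genes tested, 1775 were called. DESeq2 called 3005, an adjusted p under 0.01 left 381, log2(FPKM + 1) without a filter 769, omission of single libraries 864 to 2774, and omission of the 3 farthest libraries 212. Of the 10 genes, 5 were called, against 1 at an adjusted p under 0.01 (Klf6), 1 with log2(FPKM + 1) without a filter, 3 to 5 without single libraries and 0 without the 3 farthest. Without IL6 shRNA1 library 2 or 5, or control library 2 or 5, 3 of the 10 were called and 869, 989, 875 and 864 of all genes. Klf6 was called in 23 of 24 alternatives, Klf2 in 21, Dusp1 in 20, Fos in 16 and Junb in 7, with the stricter alternative counted at its own threshold of 0.01. Signs reversed for Fosb without IL6 shRNA1 library 5 (-0.0033) and without the 3 farthest libraries (-0.24), and for Jund without control library 4 (0.12). With log2(FPKM + 1), 6 of 9 relations of Fos passed by Pearson's r, against 0 with log2 CPM. Each of the 6 had an adjusted permutation p of 0.0499, just under the threshold. By Spearman's rho no relation passed with log2(FPKM + 1) (smallest adjusted permutation p = 0.0816). Without single libraries the log2 fold change ran from -0.0033 to 0.90 for Fosb and from -0.15 to 0.12 for Jund. Il6 was not called in any of the 24 alternatives. The cause of these shifts was not tested.

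Same-numbered libraries did not consistently deviate together (correlations of -0.28, -0.07, 0.11, 0.27 and -0.28), and 2 of 10 libraries correlated best with their own number. These values do not show that the numbers pair samples, but correlations of so few libraries cannot exclude a pairing. With the replicate number as a block, 755 genes and 2 of the 10 (Klf2 and Klf6) were called. Atf3, with 54 to 446 counts, and Fosb, with 107 to 403, had the fewest counts of the 10, and Il6 had 9 to 48.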
